A study of Mus musculus with 4 samples.

Results

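The posterior Hox genes of the newborn mouse kidney are described here as 10 genes, Hoxa9, Hoxa10, Hoxa11, Hoxc8, Hoxc9, Hoxc10, Hoxd8, Hoxd9, Hoxd10 and Hoxd11. They were chosen by symbol among the 31053 genes of the count matrices, which hold 39 Hox genes in all. Hoxc8 and Hoxd8 belong to paralogue group 8, which is often counted as central, so "posterior" is a working name for these 2. The data are 2 droplet single-cell RNA-seq libraries of whole kidney from newborn mice. In the Six2CreTet2/3f/f library (the floxed library) the kidney carried Six2Cre together with floxed alleles of Tet2 and Tet3, and in the Six2Cre library (the control library) it carried Six2Cre alone. Both genotypes therefore carry the Cre recombinase, driven by Six2, a gene of nephron progenitors, so that progenitors and their descendants (podocytes and tubules of the nephron) are the cells in which floxed alleles are known to be deleted. Each genotype had 1 library, how many animals went into it is not given in the sources used here, and no difference between the genotypes has a replicate check. Bisulfite sequencing samples of Six2-positive progenitors belong to the same series and were not analysed here.

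Hox genes encode homeodomain transcription factors that stand in clusters, and their order along the chromosome follows the position along the body axis at which they are first active. Genes at the same place in different clusters, such as Hoxa11 and Hoxd11, are paralogues with overlapping functions. In the mouse, Hox11 paralogues act with Eya1 and Pax2 in the metanephric mesenchyme upstream of Six2 and Gdnf and are needed together for outgrowth of the ureteric bud, and Hox10 paralogues are needed in the renal stroma.

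The 10 genes lie in 3 clusters. In GRCm38.p6 (mm10), RefSeq places Hoxa9 (ENSMUSG00000038227) on chromosome 6 from 52223097 to 52227370, Hoxa10 (ENSMUSG00000000938) from 52231197 to 52240854 and Hoxa11 (ENSMUSG00000038210) from 52242105 to 52245810, all on the minus strand. Hoxc10 (ENSMUSG00000022484) spans 102966796 to 102971898 of chromosome 15, Hoxc9 (ENSMUSG00000036139) 102977032 to 102984444 and Hoxc8 (ENSMUSG00000001657) 102990539 to 102994275. On chromosome 2, Hoxd11 (ENSMUSG00000042499) spans 74679558 to 74687016, Hoxd10 (ENSMUSG00000050368) 74684273 to 74695106, Hoxd9 (ENSMUSG00000043342) 74697763 to 74700208 and Hoxd8 (ENSMUSG00000027102) 74704615 to 74707933, on the plus strand. The annotated spans of Hoxd10 and Hoxd11 overlap, Hoxa11 overlaps its antisense gene Hoxa11os, and Hoxa10, Hoxc9 and Hoxd8 each overlap a predicted gene. How reads in these overlaps were assigned, and whether by strand, is not given in the sources used here, so the values of Hoxd10, Hoxd11, Hoxa10, Hoxa11, Hoxc9 and Hoxd8 carry that uncertainty.

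Start regions are shown for the Hoxa genes, whose levels differed most between the libraries, and for Hoxd8 and Hoxd9, whose distribution over cell types stood apart from the other members. Each runs from 250 bases before to 50 bases after an annotated RefSeq start (GRCm38.p6), 5′ to 3′ on the gene's strand, with CG dinucleotides, where cytosine methylation and its oxidation by Tet enzymes occur, in capitals. Regions for 7 of the 10 genes were in the RefSeq table used, Hoxa10 and Hoxd11 with 2 each.
Hoxa9, chr6:52227321-52227620, minus strand: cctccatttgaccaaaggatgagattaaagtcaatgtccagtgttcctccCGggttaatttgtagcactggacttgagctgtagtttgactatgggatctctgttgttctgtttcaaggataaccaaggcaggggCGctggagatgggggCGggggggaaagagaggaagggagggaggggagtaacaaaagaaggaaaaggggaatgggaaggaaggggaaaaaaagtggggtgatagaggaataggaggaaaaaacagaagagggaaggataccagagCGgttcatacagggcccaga
Hoxa10, chr6:52240805-52241104, minus strand: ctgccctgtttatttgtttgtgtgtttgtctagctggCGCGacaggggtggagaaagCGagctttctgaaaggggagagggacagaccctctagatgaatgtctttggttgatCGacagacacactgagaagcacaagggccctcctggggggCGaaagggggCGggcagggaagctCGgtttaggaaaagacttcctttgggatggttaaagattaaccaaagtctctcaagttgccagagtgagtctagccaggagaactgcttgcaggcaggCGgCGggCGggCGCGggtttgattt
Hoxa10, chr6:52234890-52235189, minus strand: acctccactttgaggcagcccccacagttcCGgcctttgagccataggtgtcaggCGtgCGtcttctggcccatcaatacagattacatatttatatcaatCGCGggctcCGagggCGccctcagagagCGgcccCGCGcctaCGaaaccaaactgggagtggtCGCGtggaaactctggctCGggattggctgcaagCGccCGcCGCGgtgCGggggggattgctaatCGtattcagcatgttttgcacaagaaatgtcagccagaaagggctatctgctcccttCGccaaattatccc
Hoxa11, chr6:52245761-52246060, minus strand: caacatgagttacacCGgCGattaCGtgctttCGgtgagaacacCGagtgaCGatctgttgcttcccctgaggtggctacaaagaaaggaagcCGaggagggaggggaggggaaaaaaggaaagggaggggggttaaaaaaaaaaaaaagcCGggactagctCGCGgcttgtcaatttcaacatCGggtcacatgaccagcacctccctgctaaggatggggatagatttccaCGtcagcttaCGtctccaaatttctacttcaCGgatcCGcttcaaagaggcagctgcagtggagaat
Hoxd8, chr2:74704365-74704664, plus strand: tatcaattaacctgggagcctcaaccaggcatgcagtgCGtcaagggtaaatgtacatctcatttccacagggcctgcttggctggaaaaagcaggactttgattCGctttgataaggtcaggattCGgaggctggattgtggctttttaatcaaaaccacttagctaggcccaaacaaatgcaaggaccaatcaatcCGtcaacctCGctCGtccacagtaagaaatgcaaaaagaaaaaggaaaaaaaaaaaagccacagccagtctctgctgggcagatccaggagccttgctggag
Hoxd9, chr2:74697513-74697812, plus strand: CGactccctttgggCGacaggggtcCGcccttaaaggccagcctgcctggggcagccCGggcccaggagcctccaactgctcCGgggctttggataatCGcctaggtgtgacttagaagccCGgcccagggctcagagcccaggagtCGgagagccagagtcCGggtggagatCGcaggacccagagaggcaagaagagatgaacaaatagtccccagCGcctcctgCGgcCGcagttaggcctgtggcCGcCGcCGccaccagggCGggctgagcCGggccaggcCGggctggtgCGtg
The Hoxa9 region holds 4 CG dinucleotides and the Hoxd8 region 6, against a median of 7 over the 32851 start regions of the table. The upstream and the downstream Hoxa10 start regions hold 12 and 21, Hoxa11 15 and Hoxd9 20. The share of all regions with at least as many is 68.6% for Hoxa9, 56.4% for Hoxd8, 39.6% and 24.8% for the Hoxa10 starts, 34.6% for Hoxa11 and 26.5% for Hoxd9. Neither TTTATG, a core of posterior Hox binding sites, nor TGACAG, a Meis-type core, was found on either strand of the 6 regions shown. Among the member regions not shown, the upstream Hoxd11 start region holds 1 TTTATG. The 2 cores occur in 11.9% and 19.2% of all regions. Reads of these libraries come from 3′ ends and do not tell the 2 Hoxa10 starts apart.

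Filtering left 14393 floxed cells (median 4776 UMIs) and 19493 control cells (median 5990 UMIs). A UMI, unique molecular identifier, stands for a single RNA molecule. The cells formed 27 clusters, of which 25 were named from marker genes in 12 classes, written as class-like because the names were rebuilt from expression. Hox genes were kept out of the genes used for clustering. Levels (CPM) are the UMIs of a gene per 1000000 UMIs of a class in a library. Intervals in parentheses are 95% and cover counting error only. The matrices shared 174 barcodes, of which 90 were kept in both libraries. Without them, each member kept the direction of its ratio between the libraries in progenitor-like and stroma-like cells. Tet3 stood at 43.1 CPM in floxed and 91.0 CPM in control nephron progenitor-like cells, and Tet2 at 24.6 and 29.3 CPM. Outside the progenitor lineage Tet3 was also lower in floxed cells. Its ratio was 0.76 (0.71 to 0.82) in stroma-like, 0.75 (0.66 to 0.85) in endothelium-like, 0.73 (0.58 to 0.92) in macrophage-like and 0.81 (0.74 to 0.89) in ureteric and collecting duct-like cells. In mural and renin-like, neutrophil-like and erythroid-like cells the interval included 1. Tet2 had its lowest ratio, 0.50 (0.37 to 0.67), in macrophage-like cells. A deleted allele can still give 3′ tags, which therefore say little about whether the alleles were lost.

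Across cell classes, the 10 genes together were highest in nephron progenitor-like cells, the Six2-positive cells from which all nephrons derive. Their summed level was 1671 CPM (1648 to 1694) in floxed and 1453 CPM (1439 to 1467) in control progenitor-like cells. Stroma-like cells, the interstitial and capsular mesenchyme, followed with 1087 CPM (1074 to 1101) and 1006 CPM (996 to 1016). The ratio of progenitor-like to stroma-like cells was 0.62 on the log2 scale (0.59 to 0.65) in the floxed library and 0.53 (0.51 to 0.55) in the control library. Henle loop and distal tubule-like cells held 963 and 981 CPM, podocyte-like cells 974 and 859.5 CPM and committed nephron-like cells 820.5 and 707.5 CPM. Ureteric and collecting duct-like cells held 442 and 535 CPM, and endothelium-like cells 211 and 232 CPM. Macrophage-like cells, which should lack these genes, held 212 CPM in the floxed and 284 CPM in the control library, a level that free RNA in the droplets can give. They were shallower than progenitor-like cells, at medians of 3012.5 and 3356 against 6426 and 7945 UMIs. The deeper ureteric and collecting duct-like cells held Hoxc8 at 11.6 and 15.7 CPM, against 26.2 and 31.6 CPM in macrophage-like cells. The macrophage-like level is therefore not a floor for deeper classes, which limits each comparison with it below. In sum, endothelium-like cells stood at 1.00-fold (0.89 to 1.11) and 0.82-fold (0.76 to 0.88) of the macrophage-like level. Of the single members, Hoxa9, at 36.3 and 43.2 CPM, and Hoxd8, at 23.9 and 28.9 CPM, were above the macrophage-like level in endothelium-like cells in both libraries, Hoxa9 by 1.39-fold (1.03 to 1.89) and 1.41-fold (1.14 to 1.76) and Hoxd8 by 1.60-fold (1.08 to 2.42) and 1.40-fold (1.08 to 1.84). Barcodes under the minimum of 1000 UMIs give a second, higher level for such RNA, with 575 CPM of the 10 genes in 1788 floxed and 608 CPM in 193 control barcodes. Hoxd8 held 49.1 and 52.9 CPM there and Hoxa9 59.8 and 31.7 CPM, the last from 6 UMIs. Against these barcodes, of the 2 genes only Hoxa9 in the control library had a higher level in endothelium-like cells.

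**Figure D1:**
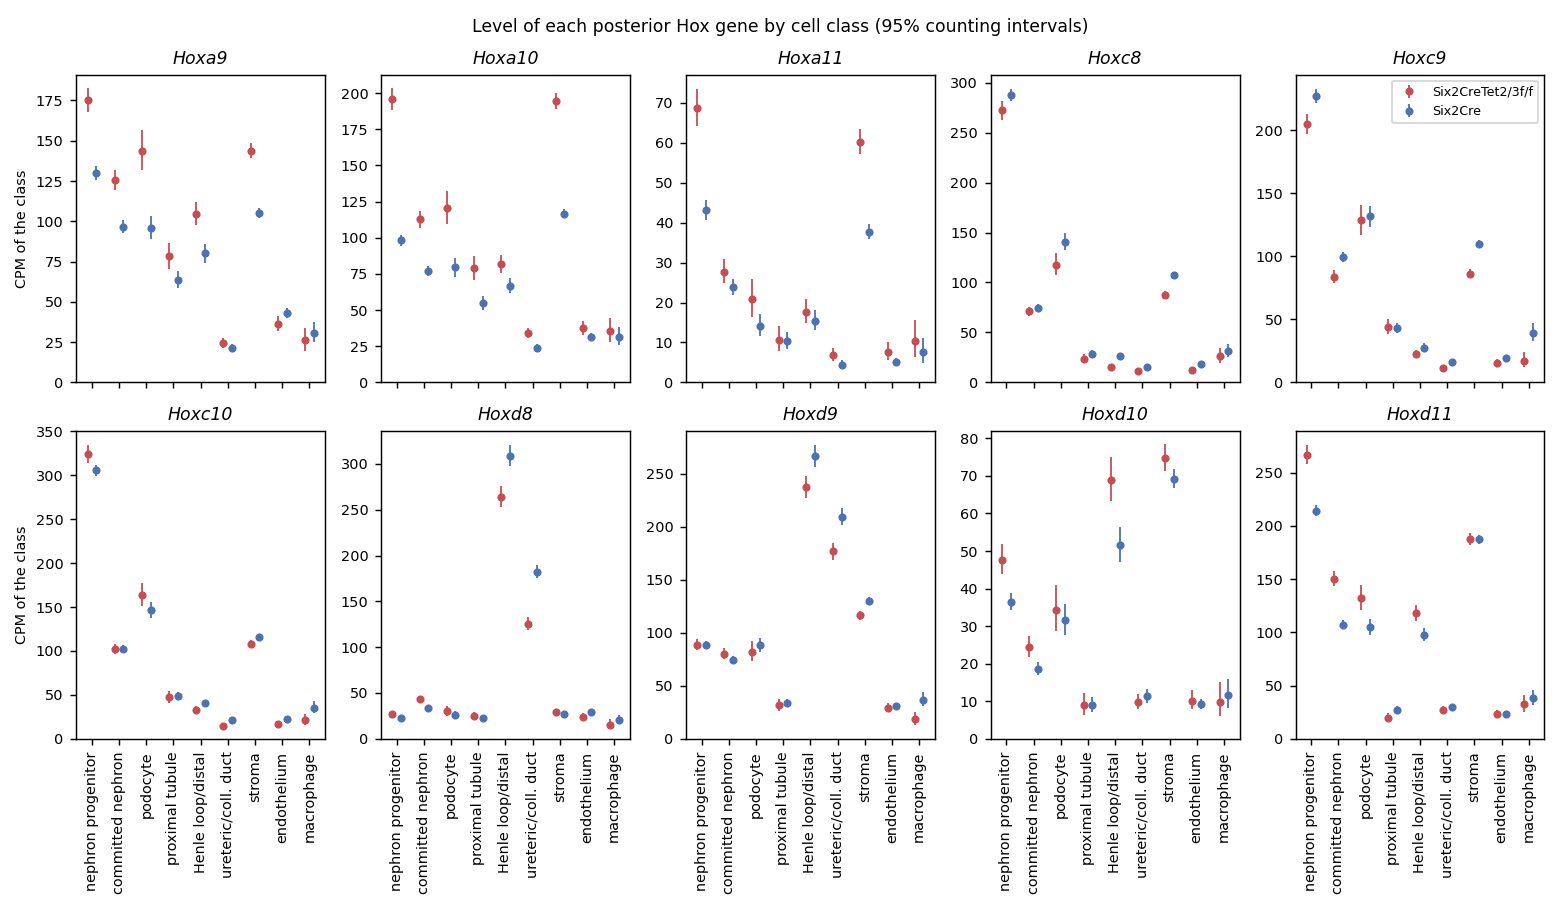
Level (CPM of the class, y axis from 0) of each of the 10 genes in 9 cell classes, for the Six2CreTet2/3f/f library (red, left of each pair) and the Six2Cre library (blue, right), with 95% counting intervals. Hoxc genes are highest in progenitor-like cells, Hoxd8 and Hoxd9 in Henle loop and distal tubule-like cells, and Hoxa9, Hoxa10 and Hoxa11 lie higher in the floxed library in both progenitor-like and stroma-like cells.

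The Hoxc genes were highest in progenitor-like cells, followed by podocyte-like cells. Hoxc10, known in the mouse for lumbar motor neuron identity, stood at 324 CPM (314 to 334) in floxed and 305 CPM (299 to 312) in control progenitor-like cells. In stroma-like cells it stood at 108 and 116 CPM, so that the progenitor level was 3.01-fold (2.86 to 3.16) and 2.63-fold (2.54 to 2.73) the stroma level. Hoxc8, which patterns brachial motor neurons, held 272 CPM in floxed and 288 CPM in control progenitor-like cells, 3.12-fold and 2.67-fold the stroma level. Hoxc9, a regulator of thoracic motor neuron identity, stood at 205 and 227 CPM, 2.37-fold and 2.08-fold the stroma level. In podocyte-like cells the 3 genes held between 118 and 164 CPM in the floxed library and between 132 and 146 CPM in the control library. In committed nephron-like cells, the Lhx1- and Pax8-positive early nephron structures, Hoxc8 stood at 71.0 and 74.6 CPM, a progenitor to committed ratio of 3.84-fold (3.56 to 4.14) and 3.85-fold (3.66 to 4.06). The Hoxc genes were below the macrophage-like level in ureteric and collecting duct-like cells, where they held 11.5 to 14.1 CPM in the floxed and 15.7 to 20.9 CPM in the control library, and no higher than it in endothelium-like cells, where they held 12.01 to 17.2 and 18.2 to 22.3 CPM.

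The Hoxd genes had 2 kinds of distribution. Hoxd8 stood at 264 CPM (253 to 276) in floxed and 309 CPM (298 to 321) in control Henle loop and distal tubule-like cells, against 24.5 and 22.1 CPM in proximal tubule-like cells, a 10.8-fold (8.91 to 13.1) and 14.0-fold (12.2 to 16.1) difference between these nephron segments. Its next highest class was ureteric and collecting duct-like cells, with 125 CPM (119 to 132) and 183 CPM (176 to 190). In progenitor-like cells Hoxd8 stood at 26.5 and 22.2 CPM, which was 1.78-fold (1.23 to 2.64) its macrophage-like level in the floxed library and 1.08-fold (0.83 to 1.41) in the control library, where the 2 levels could not be told apart at this depth. In stroma-like cells it stood at 28.8 and 27.0 CPM, 1.93-fold (1.35 to 2.84) and 1.31-fold (1.02 to 1.70) that level. Other references for free RNA were higher. Neutrophil-like cells held Hoxd8 at 45.3 CPM (25.4 to 74.8) and 46.4 CPM (26.5 to 75.4), intervals that overlap those of stroma-like cells. The barcodes under the UMI minimum held 49.1 and 52.9 CPM. Against either reference, Hoxd8 was not higher in progenitor-like or stroma-like cells. Hoxd9 followed the same order, with 237 and 266 CPM in Henle loop and distal tubule-like cells, 177 and 209 CPM in ureteric and collecting duct-like cells and 31.5 and 33.6 CPM in proximal tubule-like cells. It stood further above its macrophage-like level than Hoxd8 did in stroma-like cells (116 and 130 CPM) and progenitor-like cells (88.6 and 88.5 CPM).

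Hoxd10 and Hoxd11, which pattern the limb and in the case of Hoxd11 the early kidney, had another distribution. Hoxd11 was highest in progenitor-like cells, at 267 CPM (258 to 276) in floxed and 214 CPM (209 to 220) in control cells, followed by stroma-like cells at 188 and 187 CPM. Hoxd10 was highest in stroma-like cells, at 74.8 and 69.2 CPM, with 47.7 and 36.5 CPM in progenitor-like cells. Along the nephron both were low in proximal tubule-like cells and higher in Henle loop and distal tubule-like cells. Hoxd10 stood at 69.0 CPM in floxed and 51.7 CPM in control Henle loop and distal tubule-like cells, against 8.9 and 8.9 CPM in proximal tubule-like cells. Hoxd11 stood at 118 and 97.9 CPM against 19.3 and 26.9 CPM in the same classes. In ureteric and collecting duct-like cells Hoxd10 (9.8 and 11.3 CPM) and Hoxd11 (27.2 and 30.01 CPM) did not exceed the macrophage-like level.

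The ureteric class held 2 clusters with different Hox content. In the cluster led by Aqp2, the water channel of collecting duct principal cells, Hoxd8 stood at 142 CPM in the floxed and 227 CPM in the control library. In the cluster with Ret, the receptor of the ureteric tip, among its leading genes, it stood at 91.0 and 109 CPM, so the Aqp2-led cluster held 1.56-fold (1.37 to 1.78) and 2.09-fold (1.90 to 2.30) that level. The Hoxa genes had the opposite order: Hoxa10 stood at 17.4 and 15.6 CPM in the Aqp2-led cluster and at 68.5 and 37.1 CPM in the Ret-marked cluster. Hoxd11 likewise stood at 15.7 and 18.6 CPM in the Aqp2-led and 51.2 and 48.9 CPM in the Ret-marked cluster. The Aqp2-led cluster made up 58.7% of the class in the floxed and 53.2% in the control library.

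The Hoxa genes stood at similar levels in progenitor-like and stroma-like cells. In the floxed library Hoxa10 stood at 196 CPM (188 to 204) in progenitor-like and 194 CPM (189 to 200) in stroma-like cells, intervals that overlap. In the control library it stood at 98.2 CPM (94.6 to 102) in progenitor-like and 117 CPM (113 to 120) in stroma-like cells, so only the control library gave an order of these classes. Hoxa9, known for its role in blood progenitors and leukaemia, and Hoxa11 were higher in progenitor-like than in stroma-like cells in both libraries, by 1.22-fold and 1.24-fold for Hoxa9 and by 1.14-fold in each library for Hoxa11. In proximal tubule-like cells Hoxa9 stood at 78.2 and 63.8 CPM, 2.99-fold (2.25 to 4.03) and 2.08-fold (1.68 to 2.60) the macrophage-like level, whereas Hoxd10 and Hoxd11 stood at or below that level there. Erythroid-like cells held Hoxa9 at 66.5 CPM (54.8 to 80.0) and 48.7 CPM (34.1 to 67.5), intervals that overlap those of proximal tubule-like cells. Against that reference, Hoxa9 in proximal tubule-like cells was not clearly higher.

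These distributions give each class its own mix of the 3 Hox clusters. Hoxc genes made up 47.9% of the UMIs of the 10 genes in floxed and 56.5% in control progenitor-like cells. Hoxd genes made up 76.8% and 81.0% in ureteric and collecting duct-like cells and 71.5% and 73.9% in Henle loop and distal tubule-like cells. Hoxa genes made up 45.7% and 37.8% in proximal tubule-like cells. The Hoxa share was higher in the floxed library in each of the 12 named classes, for example 26.3% in floxed and 18.7% in control progenitor-like cells and 36.6% in floxed and 25.8% in control stroma-like cells. Since 1 UMI stands for 1 molecule tagged at its 3′ end, these shares are not scaled by gene length.

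**Figure D2:**
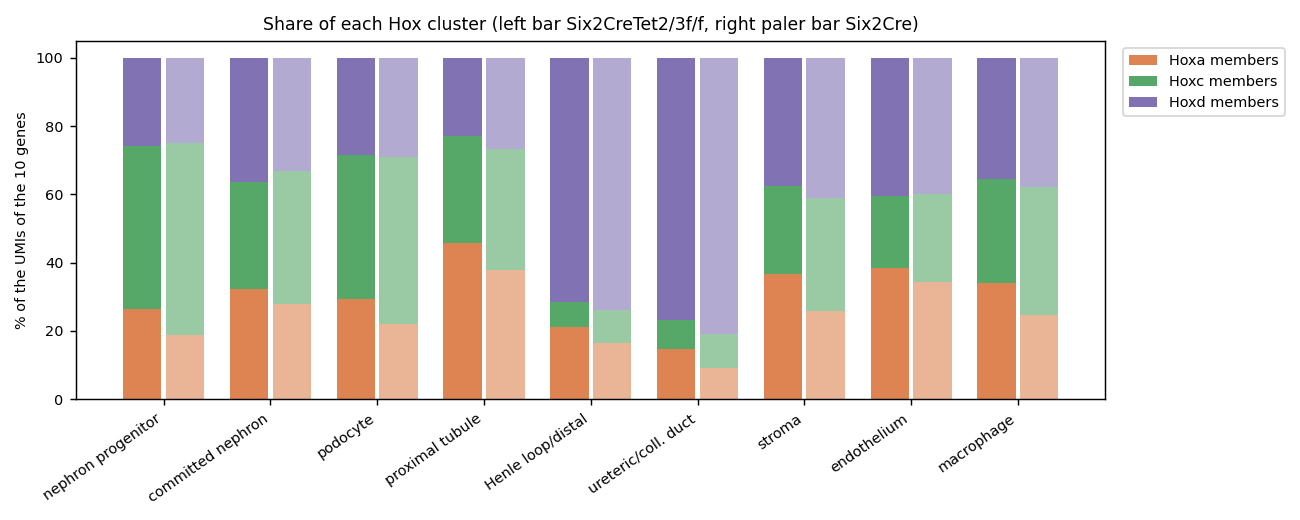
Share of the UMIs of the 10 genes (percent, y axis) that came from Hoxa, Hoxc and Hoxd genes in 9 cell classes, left bar Six2CreTet2/3f/f and right paler bar Six2Cre. Hoxd genes hold most of the total in ureteric and Henle loop and distal tubule-like cells, Hoxc genes hold 47.9% and 56.5% in progenitor-like cells.

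Across the 24 values of 12 classes in 2 libraries, the correlation of log2(CPM + 1) between members, each library centred on its own mean, was highest between Hoxc8 and Hoxc10 (r = 0.97). Hoxd8 correlated with Hoxd9 (r = 0.79) and with the Hoxc genes at r between -0.44 and -0.34. These points share libraries and free RNA, so the values are a description. Of 7810 genes compared in the same way, the 5 whose pattern was most like that of the summed members were Gas1 (r = 0.89), Pkdcc (0.88), Mapk8ip1, Igsf3 and Plekha5. The gene most like Hoxd11 was Pkdcc (r = 0.97), which encodes a secreted protein kinase, followed by Hs6st2, Gas1, the Wnt receptor gene Fzd2 and Tmem100. The Pkdcc level was 269 CPM in floxed and 176 CPM in control progenitor-like cells, and 191 and 158 CPM in the stroma.

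Within the stroma, the Hoxa and Hoxd genes differed between clusters. Hoxd10 stood at 34.1 CPM in floxed and 32.5 CPM in control cells of the nephrogenic zone-like cluster, which is led by Ntn1. It stood at 159 and 155 CPM in the myofibroblast-like cluster led by Postn, 4.68-fold (3.75 to 5.86) and 4.76-fold (4.08 to 5.57) higher than in the nephrogenic zone-like cluster. A cluster led by Nts, Nrxn3 and Cck, to which the markers gave no stroma subtype, held 124 and 120 CPM of Hoxd10, and the interstitial-like cluster led by Clca3a1 held 99.3 and 75.6 CPM. Hoxa10 had a similar order, with 107 and 65.2 CPM in the nephrogenic zone-like, 188 and 107 CPM in the interstitial-like, 306 and 187 CPM in the myofibroblast-like and 355 and 213 CPM in the Nts-led cluster. Hoxa11 stood at 39.6 and 22.9 CPM in the nephrogenic zone-like and at 116 and 70.9 CPM in the Nts-led cluster, a difference of 2.92-fold (2.43 to 3.51) and 3.10-fold (2.60 to 3.72). Hoxd9 was highest in the interstitial-like cluster, at 163 and 170.2 CPM, against 88.2 and 103 CPM in the nephrogenic zone-like cluster, 1.85-fold (1.64 to 2.10) and 1.66-fold (1.52 to 1.81). Hoxc10, by contrast, stood at 119 and 113 CPM in the nephrogenic zone-like and 88.6 and 94.9 CPM in the Nts-led cluster. Its highest stroma level in both libraries, 130 and 158 CPM, was in a cluster led by the cell cycle genes Mxd3 and Mki67.

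**Figure D3:**
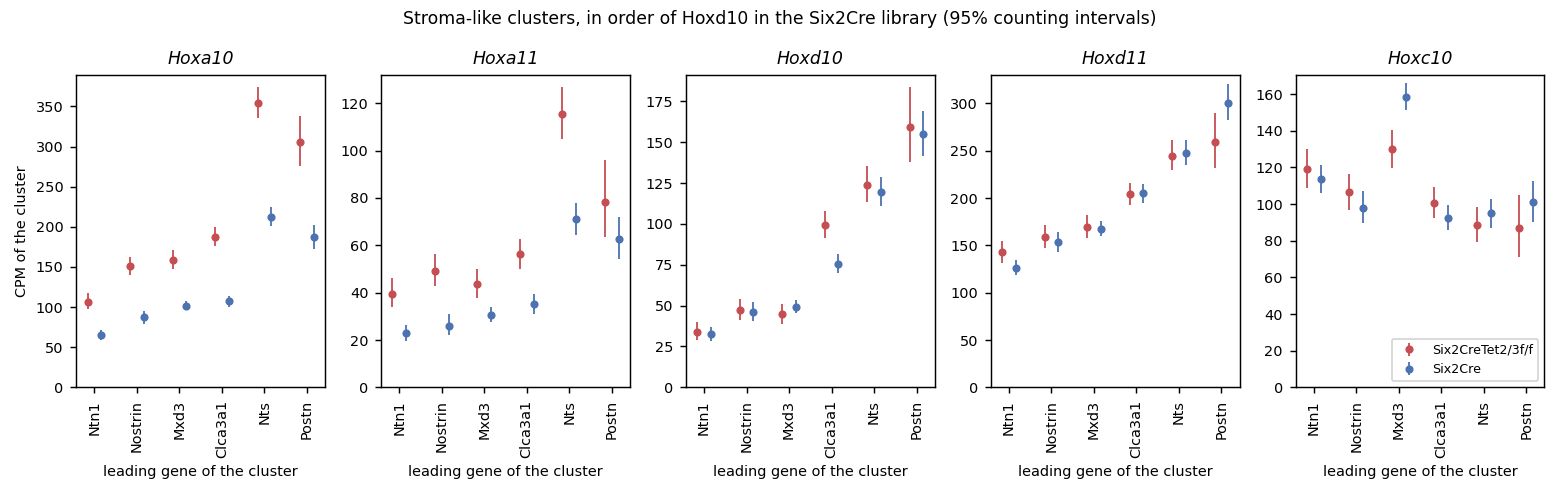
Level (CPM of the cluster, y axis from 0) of 5 genes in the 6 stroma-like clusters, named by their leading gene and ordered by Hoxd10 in the Six2Cre library; red, left, Six2CreTet2/3f/f and blue, right, Six2Cre, with 95% counting intervals. Hoxa10, Hoxa11, Hoxd10 and Hoxd11 are lowest in the Ntn1-led cluster and highest in the Nts-led or Postn-led cluster, and Hoxc10 is highest in the Mxd3-led cluster.

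The other comparison the design implies is between the floxed and the control library. In progenitor-like cells, Hoxa10 stood at 196 CPM (188 to 204) in the floxed and 98.2 CPM (94.6 to 102) in the control library, 1.99-fold higher (1.89 to 2.11). It was the only member past the size rule used here, which asks for a level of 25 CPM or more in either library together with an interval that lies entirely outside 1.5-fold. All 10 members could be tested, and 1 of 10 was called, against 3.49% of the 5298 genes tested in progenitor-like cells. Of the members, 7 had an interval wholly above 1-fold and 2 wholly below, where 37.7% and 28.3% of all tested genes did. The members' median log2 ratio was 0.29, and that of all tested genes 0.04. Their summed level was 0.20 higher on the log2 scale (0.18 to 0.23). The 8 markers that define the class also summed to more in floxed cells, 1001 CPM against 796 CPM in control cells, with 5 of them higher and none at 0, and their part in the Hox values was not tested.

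The other Hoxa members also stood higher in floxed progenitor-like cells without passing the size rule. Hoxa11 stood at 68.8 and 43.1 CPM, a ratio of 1.60 (1.46 to 1.74), and Hoxa9 at 175 and 129.8 CPM, a ratio of 1.35 (1.28 to 1.43). Together the Hoxa members held 440 CPM in floxed and 271 CPM in control progenitor-like cells, 1.62-fold (1.57 to 1.68). Of the Hoxd members, Hoxd10 and Hoxd11 had ratios of 1.31 (1.18 to 1.45) and 1.246 (1.19 to 1.30), and Hoxd8 and Hoxd9 of 1.20 (1.04 to 1.37) and 1.00 (0.93 to 1.08). The Hoxc members differed least as a group, at 801 and 820 CPM in total and 0.98-fold (0.95 to 1.00). Hoxc10 had a ratio of 1.06, Hoxc8 of 0.95 and Hoxc9 of 0.90, and the direction of Hoxc8 turned when the clusters of the class were weighted equally, and that of Hoxd9 under several settings.

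**Figure D4:**
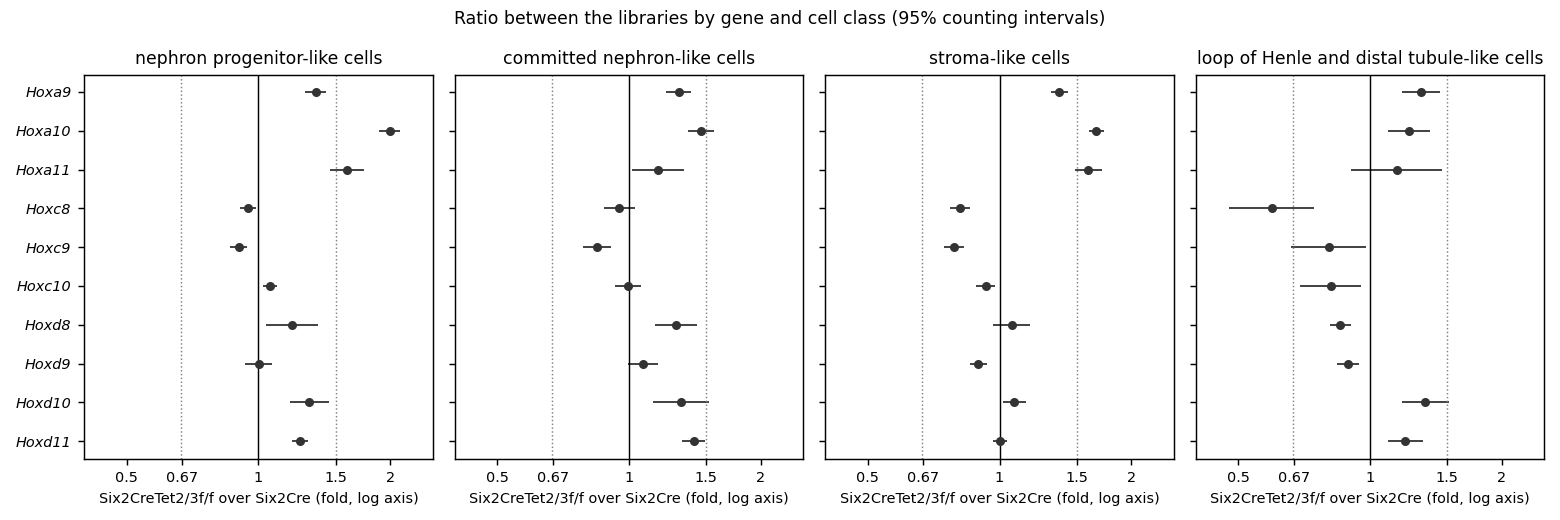
Ratio of the Six2CreTet2/3f/f to the Six2Cre library (fold, log2-spaced x axis) for each gene in 4 classes, with 95% counting intervals; the solid line marks 1-fold and the dotted lines 1.5-fold in either direction. Hoxa10 lies at 1.99-fold in progenitor-like and 1.66-fold in stroma-like cells, and the Hoxc genes lie near or below 1 in all 4 classes.

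The difference in Hoxa10 was not limited to progenitor-like cells. In stroma-like cells, which do not descend from Six2-positive progenitors, Hoxa10 stood at 194 CPM (189 to 200) in the floxed and 117 CPM (113 to 120) in the control library, 1.66-fold higher (1.60 to 1.73), and it was again the only 1 of 10 members past the size rule, which 3.41% of the 5480 genes tested passed. Of the members, 4 had an interval wholly above 1-fold and 4 wholly below, where 35.8% and 36.1% of all tested genes did. Hoxa11 stood at 60.3 and 37.8 CPM, a ratio of 1.60 (1.48 to 1.72), and Hoxa9 at 144 and 105 CPM, a ratio of 1.37 (1.31 to 1.43). On the log2 scale the Hoxa10 ratio was larger in progenitor-like than in stroma-like cells by 0.26 (0.16 to 0.36). For Hoxa9 the same difference was -0.02 (-0.12 to 0.08) and for Hoxa11 its interval ran from -0.16 to 0.16. The Hoxc members had ratios of 0.81 (0.77 to 0.85) for Hoxc8, 0.79 (0.75 to 0.83) for Hoxc9 and 0.93 (0.89 to 0.98) for Hoxc10 in stroma-like cells. Hoxd11 stood at 188 and 187 CPM, a ratio of 1.00 (0.97 to 1.04), and Hoxd9 at 116 and 130.2 CPM, a ratio of 0.89 (0.85 to 0.94). The members' median log2 ratio in stroma-like cells was 0.05 and that of all tested genes 0.00, and the summed members stood 0.11 higher in the floxed library (0.09 to 0.13). The directions of Hoxc10 and of each Hoxd member in stroma-like cells turned under at least 1 of the alternative settings.

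Hoxa10 stood higher in the floxed library in all 12 named classes, at 1.12-fold to 2.59-fold, and in all 25 named clusters. Its interval lay wholly above 1-fold in 9 of the 12 classes and in 18 of the 25 clusters. Some classes are a single cluster, so the 2 counts overlap. The share of all genes higher in all 25 clusters was not computed. Of the genes tested in progenitor-like cells, 6.53% were higher in all 12 classes. It stood at 113 and 77.1 CPM in committed nephron-like cells (1.46-fold, 1.36 to 1.57), at 121 and 79.5 CPM in podocyte-like cells, of which the smaller of 2 clusters made up 2.10% in the floxed and 29.7% in the control library, and at 78.8 and 54.8 CPM in proximal tubule-like cells. The 7 podocyte markers summed to 2067 CPM in floxed and 2898 CPM in control podocyte-like cells, and 0 of them were higher in the floxed library. In macrophage-like cells Hoxa10 stood at 35.5 and 31.6 CPM, 1.12-fold. Its progenitor log2 ratio exceeded the macrophage one by 0.83 (0.39 to 1.26). The barcodes under the UMI minimum, the other level for free RNA, also held more Hoxa10 in the floxed library. They held 96.3 CPM in the floxed and 52.9 CPM in the control library, the last from 10 UMIs. The part of free RNA in the Hoxa10 difference was not tested. In erythroid-like cells the median of all tested genes was itself 0.34 on the log2 scale. Hoxa10 stood at 84.2 and 32.5 CPM there and was past the size rule, as 2.60% of genes were. Within the 3 progenitor-like clusters it stood at 190 and 88.9 CPM, 203 and 103 CPM, and 212 and 113 CPM. The last of these clusters, led by Six3 and Col2a1, made up 13.1% of the class in the floxed and 22.9% in the control library. Markers of red blood cells differed between the libraries as well: the 6 markers summed to 4264 and 1357 CPM in progenitor-like cells and to 5346 and 2110 CPM in stroma-like cells, and to 11468 and 1572 CPM in podocyte-like cells, none of them at 0, and their part in the Hox values was not tested. Cells with a UMI of Mki67 or Top2a made up 37.7% of floxed and 51.8% of control progenitor-like cells, and without them the Hoxa10 ratio was 2.12. These shares were taken without thinning and depend on depth, which was lower in the floxed cells (medians of 6426 and 7945 UMIs).

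**Figure D5:**
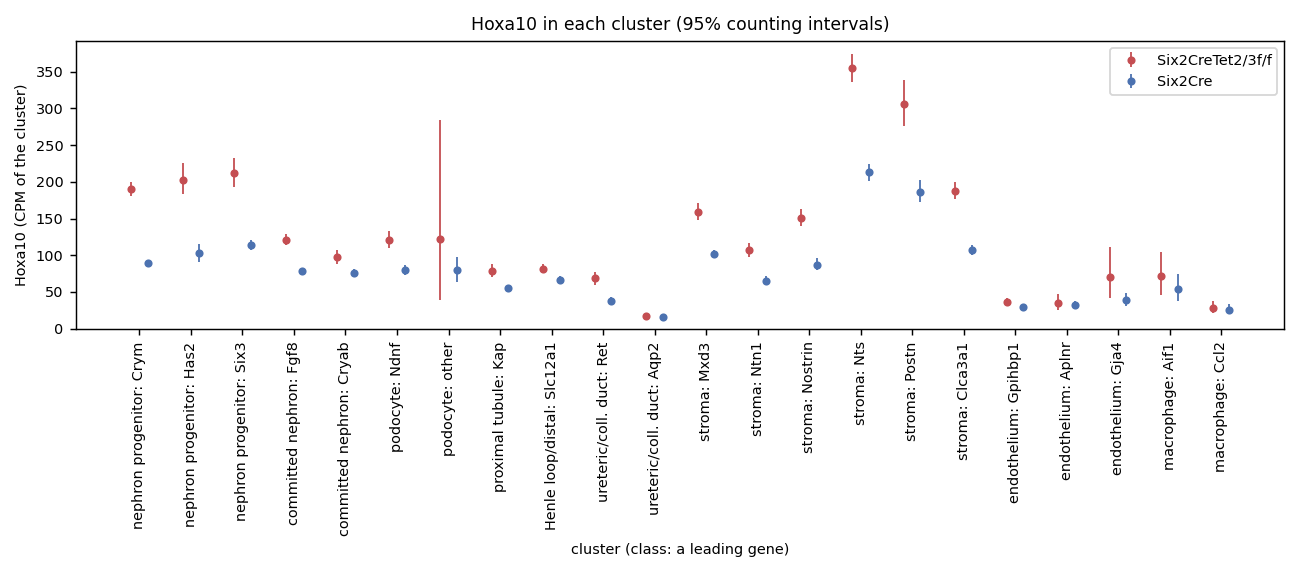
Hoxa10 level (CPM of the cluster, y axis from 0) in each cluster of 9 classes, named by class and a leading gene (the smaller podocyte-like cluster is written as other); red, left, Six2CreTet2/3f/f and blue, right, Six2Cre, with 95% counting intervals. The floxed value lies above the control value in each cluster plotted, and the highest levels, 355 and 213 CPM, are in the Nts-led stroma-like cluster.

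In ureteric and collecting duct-like cells, which derive from the ureteric bud, Hoxd8 stood at 125 and 183 CPM, a ratio of 0.69 (0.64 to 0.73), and Hoxd9 at 177 and 209 CPM, a ratio of 0.84 (0.80 to 0.89). In Henle loop and distal tubule-like cells, which descend from Six2-positive progenitors, Hoxd8 had a ratio of 0.86 (0.81 to 0.91) and Hoxd9 of 0.89 (0.84 to 0.95), while Hoxd10 and Hoxd11 had ratios of 1.34 and 1.20. None of these passed the size rule, which 4.44% of genes passed in the ureteric class and which, in the class of the Henle loop, 88 genes passed as higher and 134 as lower of 5553 tested. In committed nephron-like cells 0 of 9 tested members passed it, against 2.53% of 5579 genes, and Hoxd11 had the ratio closest to that of Hoxa10, 1.41 (1.32 to 1.49), at 150.3 and 107 CPM. In macrophage-like cells Hoxc9 stood at 17.3 and 39.4 CPM and was past the rule, as 5.36% of genes were. The macrophage-like level used above for comparison thus itself differed between the libraries.

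Hoxa10 was also found in a larger share of floxed cells. With each cell thinned to 2000 UMIs, 31.3% (29.0 to 33.5) of 1686 floxed and 17.8% (16.4 to 19.2) of 2776 control progenitor-like cells held a Hoxa10 UMI. Without thinning the shares were 68.8% and 55.1%, at medians of 6426 and 7945 UMIs. In macrophage-like cells, at medians of 3012.5 and 3356 UMIs, the thinned shares were 4.52% and 5.76% and the unthinned shares 11.2% and 11.2%. In stroma-like cells the thinned shares were 29.7% and 19.5%. Thinned progenitor-like cells held UMIs of at least 3 of the 10 genes in 52.0% of floxed and 41.2% of control cells, against 2.13% and 2.77% of macrophage-like cells. Thinning left out 19 floxed and 18 control progenitor-like cells. It left out a larger part of the macrophage-like cells, keeping 376 of 590 floxed and 469 of 705 control cells.

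The genes around the Hox network were compared in the same way, and the background for each list is the 3.49% of all tested genes past the size rule in progenitor-like cells and the 3.41% in the stroma. Of 9 Hox cofactor genes of the TALE homeobox class, 5 could be tested in progenitor-like cells, 0 passed the size rule and the median log2 ratio was -0.08. Meis2 held 420.2 CPM in floxed and 433 CPM in control progenitor-like cells. In stroma-like cells 6 were tested, 0 passed and the median was 0.03. Of 9 genes that act with or below Hox11 in the mouse metanephros, 8 were tested in progenitor-like cells with a median of 0.26 and 1 passed: Osr1, a regulator of early nephron progenitors, stood at 48.4 and 25.6 CPM, 1.89-fold higher (1.69 to 2.11). Eya1, Six2 and Gdnf of this list are also among the markers that define the progenitor-like class, so the list is not independent of the class. The 4 of this list with the highest levels were Wt1 at 203 and 224 CPM, Pax2 at 185 and 197 CPM, Eya1 at 139 and 105 CPM and Sall1 at 109 and 70.9 CPM. In stroma-like cells 4 of the list were tested, with a median of 0.03, and 0 passed.

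Of 15 Polycomb and Trithorax genes, which encode repressors and activators of Hox chromatin, 12 were tested in progenitor-like cells, 0 passed and the median log2 ratio was 0.14. Ezh2, the Polycomb methyltransferase, stood at 157 and 102 CPM, a ratio of 1.55 (1.46 to 1.64), just short of the rule. In the stroma it held 104 and 67.0 CPM, a ratio of 1.56 (1.48 to 1.64). Kmt2a stood at 91.2 and 81.0 CPM and Suz12 at 83.4 and 87.2 CPM in progenitor-like cells. Of 11 RNAs transcribed antisense to or between Hox genes, 7 were in the matrices and 2 were tested in progenitor-like cells: Hoxb5os stood at 61.8 and 29.2 CPM and passed the rule at 2.12-fold (1.91 to 2.34), and Hoxd3os1 stood at 26.7 and 23.2 CPM.

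Of the 29 other Hox genes, 13 were tested in progenitor-like cells, 0 passed and the median log2 ratio was -0.04. Hoxb4 stood at 148 and 181 CPM, Hoxb3 at 88.3 and 97.7 CPM, Hoxc6 at 88.9 and 91.6 CPM and Hoxb9 at 68.5 and 85.5 CPM. The counts by genomic cluster that follow include the members reported above. The 5 tested Hoxa genes, Hoxa9, Hoxa10 and Hoxa11 among them, had ratios above 1 in both progenitor-like cells (median log2 ratio 0.52) and stroma-like cells (0.45). The 8 tested Hoxb genes were split 4 to 4 in progenitor-like cells (0.00), and of 6 tested Hoxc genes 5 were below 1 (-0.12). The 4 tested Hoxc genes were all below 1 in stroma-like cells (-0.20). Hoxc8, Hoxc9 and Hoxc10 are among the tested Hoxc genes in both classes. Of all genes tested in progenitor-like cells, 44.5% had a ratio under that of Hoxd9, whose log2 ratio was 0.00. In stroma-like cells 50.8% had a ratio under that of Hoxd11, whose log2 ratio was also 0.00.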

How the data were processed

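Whole kidneys of newborn mice were profiled by droplet single-cell RNA-seq, 1 library of each genotype. The deposited matrices hold raw UMI counts per gene and barcode. They were made with Cell Ranger 6.0.2 on mm10 per the submitters' processing notes (the file headers name version 6.0.1). The annotation release and the strand setting are not given in the sources used here.

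Barcodes with at least 1000 UMIs, 500 genes and at most 15% mitochondrial UMIs were kept, 15645 of 22543 in the floxed and 21188 of 25736 in the control library. The number of cells loaded per library was 10000, so the barcodes exceed it. The automatic threshold of scrublet marked 0 floxed and 2228 control barcodes, so the 8% with the highest score were removed in each library (1252 and 1695). Cells were normalised and clustered together with scanpy 1.11.5 (2000 variable genes without Hox genes, 30 components, 15 neighbours, Leiden resolution 1) under Python 3.11.15. Clusters were named from marker lists at a score and a gap to the next list of at least 0.5. After the clusters were seen, stroma subtype markers were counted as stroma markers and the intercalated cell list was merged with the collecting duct list. Of 27 clusters, 2 stayed unnamed, a shallow one and one led by Upk3a.

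UMIs were summed per class and library and divided by the class total (CPM). Ratios have exact conditional binomial intervals, CPM exact Poisson and shares Clopper-Pearson intervals, all at 95%. They cover counting error only, and with 1 library per genotype no test between genotypes was made. The size rule and its interval were tried on simulated counts of progenitor-like cells, drawn from the control profile with counting error only. The other steps were not simulated. TMM factors came from edgeR 4.0.16.

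The members, the lists and the rules were chosen with earlier results of these data known. The text names the 10 members in each class, up to 4 genes with the highest levels of each other list with any gene past the size rule, and the 5 non-Hox genes most like the summed members and most like Hoxd11. A few named genes are not reported here.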

Additional observations from a re-analysis of the deposited data

Results flagged for a closer look

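In 7 cases among the 6 classes compared with progenitor-like cells (stroma, ureteric and collecting duct, Henle loop and distal tubule, endothelium, macrophage, committed nephron), a member at 25 CPM or more in at least 1 library of each class had a ratio of the floxed to the control library above 1 in progenitor-like cells and below 1 in the other class, with intervals that did not include 1. The share of all genes that meet this rule was not computed, so the 7 cases are listed without a background. Intervals beyond 1-fold were common, wholly above it for 37.7% of tested genes in progenitor-like and wholly below for 36.1% in stroma-like cells. The differences were not tested across animals, since each genotype had 1 library. For Hoxc10, the log2 ratio was 0.09 in progenitor-like cells and -0.11 in the stroma, a difference of 0.19 (0.10 to 0.28). Against Henle loop and distal tubule-like cells, where its log2 ratio was -0.30, the difference was 0.38 (0.15 to 0.62), and against macrophage-like cells, where it was -0.72, the difference was 0.80 (0.31 to 1.30). For Hoxa9, the log2 ratio was 0.43 in progenitor-like and -0.25 in endothelium-like cells, a difference of 0.68 (0.46 to 0.91). For Hoxd8, the log2 ratio was 0.26 in progenitor-like and -0.54 in ureteric and collecting duct-like cells, a difference of 0.80 (0.58 to 1.014). Against Henle loop and distal tubule-like cells, where its log2 ratio was -0.23, the difference was 0.48 (0.27 to 0.69), and against endothelium-like cells, where it was -0.28, it was 0.53 (0.21 to 0.86). The Hoxd8 level in progenitor-like cells, 26.5 CPM in the floxed and 22.2 CPM in the control library, is low, and in the control library it is close to its macrophage-like level, which was 14.95 CPM in the floxed and 20.6 CPM in the control library.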

How the results depend on the processing

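Of 17 alternatives, 3 were chosen after seeing the data (clusters weighted equally, the 10000 deepest barcodes, and leaving out barcodes found in both libraries). Hoxa10 was past the size rule in all 15 in which the rule was computed, with log2 ratios from 0.92 to 1.27 in progenitor-like and from 0.69 to 0.90 in stroma-like cells over all 17. The settings with no or a lower minimum level reuse the reported counts, and allowing Hox genes as variable genes left the clusters as they were. These settings gave the reported ratios and are no check of them, and their values are among the 287 counted below. The count of members past the rule in progenitor-like cells was 1 throughout. In the stroma 3 (Hoxa9, Hoxa10 and Hoxa11) passed with the macrophage-like level subtracted and 2 (Hoxa10 and Hoxa11) in the 10000 deepest barcodes. Of 340 member values, 287 moved by less than their counting interval, 48 moved by more and 5 turned to the other side of 1-fold although the interval of the reported value did not include it: Hoxd10 in stroma-like cells with a stricter cell filter (-0.0067), Hoxc10 there without cycling cells (0.063) and with the macrophage-like level subtracted (0.10), Hoxd9 there with that subtraction (0.074), and Hoxc8 in progenitor-like cells with clusters weighted equally (0.019). Among the others, 15 values changed sign where that interval included 1-fold, 6 of Hoxd9 in progenitor-like cells and 8 of Hoxd11 and 1 of Hoxd8 in the stroma. The cause was not tested.

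The summed members' log2 ratio in progenitor-like cells (0.20) was 0.13 with TMM factors and with median-ratio size factors, 0.24 at Leiden resolution 0.5 and with clusters weighted equally, 0.26 without cycling cells and 0.32 with the macrophage-like level subtracted. The stroma-like value (0.11) was 0.079 with the stricter filter, 0.14 without cycling cells and 0.28 with that subtraction. The macrophage-like sum was lower in the floxed library, so the subtraction takes less from that library and raises both values by construction. The progenitor-like over stroma-like log2 ratio was 0.59 in the floxed and 0.56 in the control library with TMM factors, 0.58 and 0.50 with a looser filter, 0.57 and 0.49 without doublet removal, 0.54 and 0.43 at resolution 0.5, 0.56 and 0.44 without cycling cells, 0.74 and 0.69 with the subtraction, and 0.59 and 0.48 with clusters weighted equally. It was 0.56 in the floxed library with size factors, and in the control library 0.48 with the stricter filter and 0.51 as a mean over cells.

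Allowing Hox genes among the variable genes selected 0 of them and left the clusters as they were. No paired analysis was possible because each genotype had 1 library, and for the same reason no replicate could be left out. Low levels limit Hoxd8 in progenitor-like cells, whose log2 ratio ranged from 0.17 to 2.91, the last with the macrophage-like level subtracted.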
